A study of Rousettus aegyptiacus with 32 samples.

Results

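In Rousettus aegyptiacus, the Egyptian fruit bat, 2107 stretches of open chromatin were found in both testis and both pectoralis muscle ATAC-seq libraries and in none of the 14 brain libraries. They were chosen by peak presence alone. All peaks of the 2 testis and 2 muscle libraries were merged into 517779 regions, and a region was kept when each of these 4 peak lists had a peak in it and no brain list did. The 2107 regions made up 0.407% of all merged regions, and 6.57% of the 32054 regions present in all 4 testis and muscle lists. They are called the testis and muscle regions below. Since presence in testis and muscle and absence from brain chose them, their counts and their peak strength in those lists are given as a description, and liver, which the choice did not use, was examined separately.

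The study compared regulatory elements and proteins across mammals in relation to vocal learning, and profiled open chromatin by ATAC-seq in 10 tissues of 2 adult male bats, called bats 1 and 3. Testis, pectoralis muscle and liver were the 3 tissues from outside the brain. The 7 brain tissues were secondary auditory cortex (2A), premotor cortex (PreM), primary motor cortex in its orofacial (ofM1) and its wing part (wM1), caudate, putamen and cerebellum. Each tissue had 1 library per animal, from bulk tissue with no treatment, so a tissue had 2 replicates and each p over libraries rests on 2 animals.

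ATAC-seq uses a transposase that inserts into DNA where nucleosomes are absent, so reads pile up over promoters, enhancers and insulators. Many promoters are open in nearly every tissue, whereas distal elements tend to be open in the tissues where they act. Testis is largely germ cells with Sertoli, Leydig, peritubular, vascular and immune cells among them, and skeletal muscle is multinucleate fibres with fibroblasts, vessels, satellite cells and macrophages. Several of these supporting cell types occur in both organs. In bulk tissue, a site open in few cells and a site open to a lesser degree in many cells cannot be told apart.

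The 20 peak lists held 155151 to 238945 distinct intervals, covering 44.0 to 127 Mb. Each list was limited to 300000 rows, and all 14 brain lists were at that limit. The weakest peak that a brain list still held had a -log10 p of 3.30 in ofM1 of bat 1 and of 12.3 in caudate of bat 1, with the other 12 lists between. The testis list of bat 1 ended at a -log10 p of 2.80, and the other testis, muscle and liver lists at 2.00. A peak as weak as the weakest of testis and muscle could therefore not stand in any brain list, and absence from the brain lists means that no peak above each list's own floor was deposited there. Read depth does not go with the lists, so it is unknown here. Genes could not be placed on these scaffolds, so the tissue labels were not checked against marker genes, and the regions are named by position, in the coordinates of the deposited files, whose genome build the sources used here do not name.

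Most of the testis and muscle regions had weak peaks in at least 1 of the 4 lists. The weakest of a region's 4 -log10 p values had a median of 3.07 (quartiles 2.49 and 3.68) and ran between 2.00 and 18.8. Among the 21389 regions in all 4 testis and muscle lists and all 14 brain lists, the corresponding median was 11.0. The 1067 regions in all 4 lists and exactly 1 brain list were about as weak as the testis and muscle regions. Their median was 3.13 (quartiles 2.49 and 3.69). A q-value of at most 0.05 in all 4 lists was held by 1168 of the 2107 regions (55.4%), where 86.6% of all 32054 regions in the 4 lists held it. A further 746 regions reached it in 3 lists, 183 in 2 and 10 in 1. The weakest peak was in testis for 209 regions in bat 1 and 494 in bat 3. It was in muscle for 613 in bat 1 and 791 in bat 3, so the lowest of the 4 values was mostly a muscle one. The testis list of bat 1 ended at a -log10 p of 2.80 and the others at 2.00, so the floors enter this order. The same counts over all 32054 regions in the 4 lists were not made.

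The brain floors bear directly on these values. In 33.7% of the regions the weakest testis or muscle peak was at least as strong in -log10 p as the lowest brain floor, and in 4 (0.190%) it was at least as strong as the highest. The strongest of the 4 peaks passed the highest brain floor in 722 regions (34.3%). Most testis and muscle regions thus had at least 1 peak that would not have been deposited in any brain list, had it been measured there with the same p. How far the row limit accounts for their absence from the brain lists was not tested.

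Peak strength, given as fold enrichment over the peak caller's background in each list, was modest in all 4 libraries. The testis and muscle regions had a median fold of 2.64 in testis of bat 1 and 3.06 in testis of bat 3, and of 2.53 in muscle of bat 1 and 2.49 in muscle of bat 3. The regions also found in all 14 brain lists had medians of 4.43 and 4.75 in testis and of 5.12 and 7.32 in muscle of bats 1 and 3. By median, the regions absent from brain were weaker than these in each of the 4 lists, with the widest gap in muscle of bat 3. The regions in 1 to 13 brain lists lay much nearer to those absent from brain. Their medians were 2.75 and 3.14 in testis and 2.69 and 2.98 in muscle of bats 1 and 3. Single regions reached much higher, up to 12.3-fold in testis of bat 1, 11.3-fold in testis of bat 3, 9.17-fold in muscle of bat 1 and 17.1-fold in muscle of bat 3. The folds are the authors' own values and were not scaled between libraries.

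**Figure D1:**
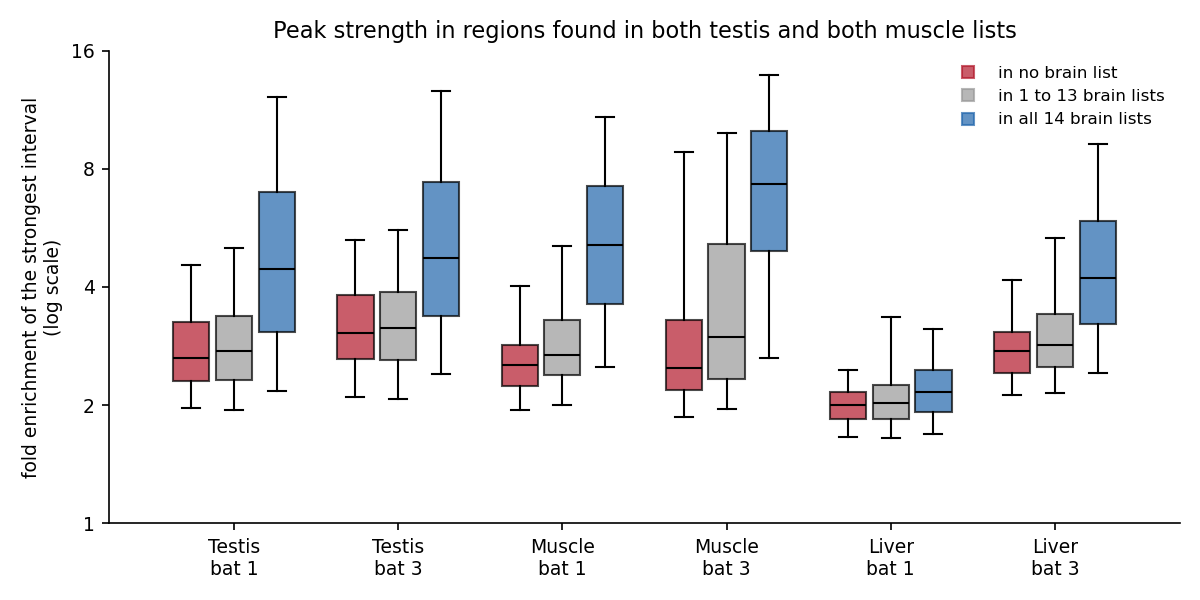
Fold enrichment (log axis) of the strongest interval in each region, for the 6 testis, muscle and liver lists. Red boxes are the 2107 regions in no brain list, grey boxes regions in 1 to 13 brain lists and blue boxes regions in all 14, all of them in both testis and both muscle lists; for liver, only the regions with a liver interval are drawn. Lines are medians, boxes quartiles and whiskers the 5th and 95th percentiles. The red median lies below the blue one in each list, 2.64 against 4.43 in testis of bat 1 and 2.49 against 7.32 in muscle of bat 3. The grey medians there are 2.75 and 2.98.

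The 10 regions with the highest weakest -log10 p had peaks well above the floors in all 4 lists, and their values in each library follow. NW_023416311.1:103561651-103562357 had 4.99- and 8.13-fold enrichment in testis of bats 1 and 3 and 5.08- and 8.38-fold in muscle, with a weakest -log10 p of 18.8. In this region testis and muscle were nearly level within each animal, and liver had 1.79-fold enrichment in bat 1 and 6.85-fold in bat 3. NW_023416284.1:157516443-157518086 had 4.35- and 5.77-fold enrichment in testis, 5.30- and 10.4-fold in muscle and 2.92- and 3.35-fold in liver. NW_023416307.1:87405695-87407063 had 4.89- and 5.66-fold enrichment in testis and 5.71- and 10.6-fold in muscle, and liver only in bat 3, with 3.07-fold. In both, muscle exceeded testis in each animal.

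Of the 4 regions that follow, all but NW_023416311.1:33980635-33981027 had higher folds in muscle than in testis of the same animal, in both animals. NW_023416295.1:20584785-20585697 had 3.91- and 5.72-fold enrichment in testis, 5.42- and 10.7-fold in muscle, and 5.04-fold in liver of bat 3 alone. It lay 5997 bases from the nearest brain interval, the farthest of the 10. These first 4 regions were the ones that exceeded the highest brain floor in all 4 lists. NW_023416311.1:33980635-33981027, with 393 bases the shortest of the 10, had 4.40- and 4.62-fold enrichment in testis, 4.23- and 8.53-fold in muscle and no liver interval. NW_023416284.1:74082359-74083801, also without a liver interval, had 3.23- and 5.08-fold enrichment in testis and 4.55- and 6.20-fold in muscle. NW_023416308.1:33325053-33326198 had 4.08- and 4.34-fold enrichment in testis, 5.29- and 9.48-fold in muscle and 1.77- and 2.94-fold in liver. All 3 of these had a base covered by the 4 lists together.

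The other 3 of the 10 differed in form. NW_023416295.1:157420469-157422641, with 2173 bases the longest, had 6.81- and 5.27-fold enrichment in testis, 4.27- and 9.55-fold in muscle and 2.51-fold in liver of bat 3 alone, but no base was covered by all 4 lists and the summits spread over 1504 bases, so its peaks are neighbours joined by merging. NW_023416289.1:54077264-54078564 had 4.46- and 5.47-fold enrichment in testis and 3.84- and 7.41-fold in muscle, with 2.87-fold in liver of bat 1 alone. NW_023416308.1:49372616-49373368 had only 2.55- and 2.52-fold enrichment in testis, 2.10- and 2.25-fold in muscle and 1.64- and 2.16-fold in liver, with -log10 p of 10.1 and above in testis and muscle. Over the 10 regions, muscle was higher in bat 3 than in bat 1 in 10 of 10 and testis in 8 of 10. Over all 32054 regions in the 4 lists, the median fold was also higher in bat 3, at 5.87 against 3.95 in muscle and 3.89 against 3.58 in testis. Over the 2107 regions it was 2.49 against 2.53 in muscle and 3.06 against 2.64 in testis. Liver of bat 1 had an interval in 5 of the 10 and liver of bat 3 in 7, with 4 in both and 2 in neither.

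**Figure D2:**
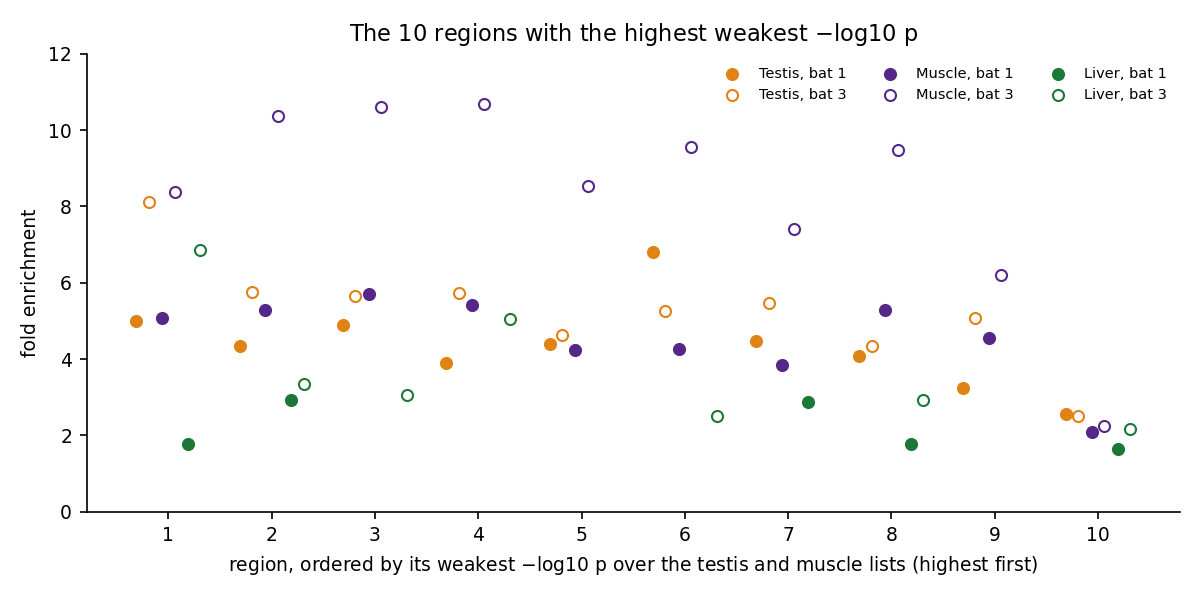
Fold enrichment of the 10 testis and muscle regions with the highest weakest -log10 p, in the order of that value, in testis, muscle and liver; filled points are bat 1 and open points bat 3, and a missing liver point means no interval. Muscle of bat 3 is the highest point in each region but the last, where all 6 values lie between 1.64 and 2.55.

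The choice asked for a peak in both organs and did not set which was stronger, but each list's own floor and scale enter the folds compared here, and 2 libraries a tissue cannot give a p under 0.05. The mean of the library medians of log2 fold was 1.51 ± 0.15 in testis and 1.33 ± 0.015 in muscle (SD, n = 2 libraries each), a difference of 0.18. Over all 6 arrangements of the 4 libraries, the exact 2-sided permutation p was 0.333, the smallest possible. Within animals, the median difference over regions was 0.084 in bat 1 and 0.27 in bat 3. Among the regions in all 14 brain lists the difference ran the other way, at -0.41 (exact permutation p = 0.333), and over all 32054 regions in the 4 lists it was -0.37. The median differences within animals there were -0.11 in bat 1 and -0.41 in bat 3 for the regions in all 14 brain lists, and -0.065 and -0.28 for all regions in the 4 lists. Among the 8558 regions in 1 to 13 brain lists the difference was 0.053, with -0.0039 in bat 1 and 0.0024 in bat 3 within animals. Without testis of bat 3 the difference was -0.059, over the 3255 regions then chosen. It was -0.42 among the 35 regions with a strong peak in all 4 lists, described next, and 0.073 among the 1168 with a q-value of at most 0.05 in all 4.

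By region, fold was higher in testis in both animals at 1000 of the 2107 (47.5%, against 25.8% of all regions in the 4 lists). It was higher in muscle in both animals at 23.8% (against 44.8%), and the animals differed in sign at 606 (28.8%). Of the 8558 regions in 1 to 13 brain lists, 35.5% had the higher fold in testis in both animals and 35.8% in muscle. The shares are of regions, which come from the same 4 libraries and are no replicates, and the floors of the lists differ: the testis list of bat 1 was at the row limit and the muscle lists were not.

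Few of these regions were strong in both organs. With strong meaning among the 50000 intervals of highest -log10 p of a list, 35 regions (1.66%) were strong in all 4 lists, where 47.9% of all regions in the 4 lists were. A far larger group, 359 regions (17.0%, against 5.61%), was strong in both testis lists and no muscle list. Their median folds were 3.70 and 4.42 in testis of bats 1 and 3, against 2.39 and 2.34 in muscle. The reverse group, strong in both muscle lists and no testis list, had 209 regions (9.92%, against 7.79%), with medians of 2.32 and 2.66 in testis and 3.44 and 6.62 in muscle. Another 700 regions (33.2%, against 8.84%) were strong in none of the 4 lists, and the remaining 804 had some other combination. Among the 8558 regions in 1 to 13 brain lists, 8.42% were strong in all 4 lists and 19.97% in none. Of these 8558, 12.9% were strong in both testis lists and no muscle list, and 12.5% in both muscle lists and no testis list. Against this set, the excess of the testis group was smaller, and the muscle group's share of 9.92% was the lower one.

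The same separation appeared in the correlation of log2 folds across the 2107 regions, which is a description, since the points share libraries and each list has its own floor. The 2 testis lists had a Pearson r of 0.65 and a Spearman rho of 0.56, and the 2 muscle lists an r of 0.61 and a rho of 0.37. Between testis and muscle, r was 0.0082 in bat 1 and -0.10 in bat 3, and -0.13 and 0.0091 across animals. Among the 21389 regions in all 14 brain lists, r was 0.91 for testis, 0.76 for muscle and 0.55 to 0.77 between testis and muscle. Among the 8558 regions in 1 to 13 brain lists, r with muscle of bat 1 was 0.25 and 0.21 for testis of bats 1 and 3. With muscle of bat 3 it was -0.0047 and -0.0077. Among the regions absent from brain, strength in testis was thus close to uncorrelated with strength in muscle. For muscle of bat 3 this was shared by the regions in 1 to 13 brain lists.

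**Figure D3:**
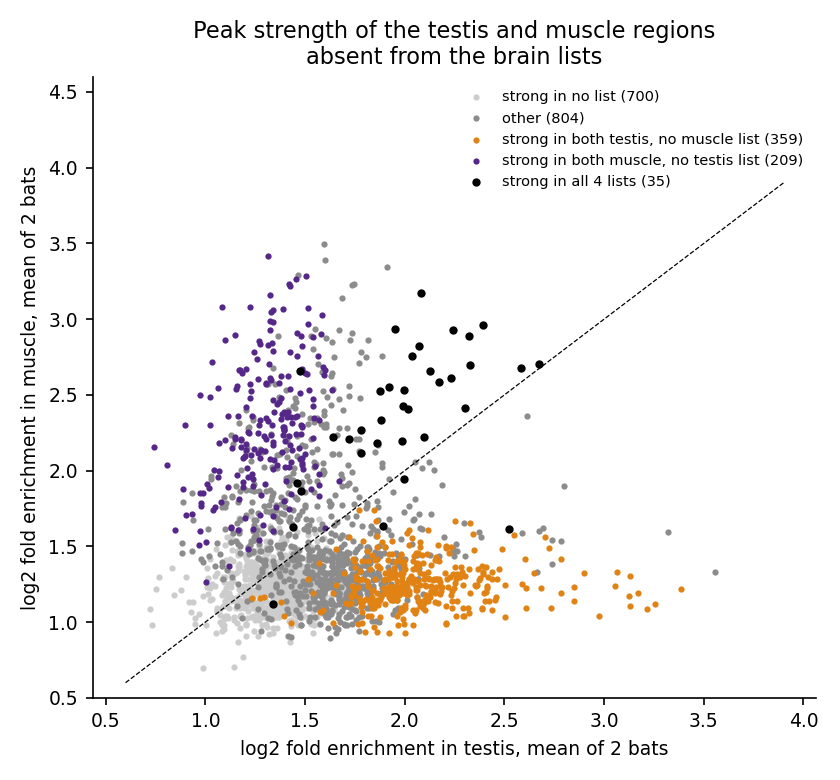
Mean log2 fold enrichment in testis (horizontal) and in muscle (vertical) over the 2 bats, 1 point for each of the 2107 regions, with equality as the dashed line. Orange points (359) are strong in both testis lists alone and purple points (209) in both muscle lists alone. Black points (35) are strong in all 4, pale grey points (700) in none, and darker grey points (804) in some other combination. The orange and the purple points form an arm along each axis, and most of the 2107 points belong to neither arm.

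The regions at the ends of the arms had several times the fold in one organ that they had in the other. NW_023416311.1:81850418-81851603 had 12.3- and 11.3-fold enrichment in testis of bats 1 and 3 and 3.14- and 2.02-fold in muscle, with no liver interval. NW_023416287.1:50411999-50413593 had 11.8- and 9.26-fold enrichment in testis, 2.50- and 2.16-fold in muscle and 2.02- and 3.39-fold in liver, without a base common to the 4 lists. NW_023416310.1:29618114-29619281 had 10.4- and 8.80-fold enrichment in testis, 2.02- and 2.34-fold in muscle and 2.73-fold in liver of bat 1. These 3 had the largest testis minus muscle differences in log2 fold with the same sign in both animals, 2.23, 2.17 and 2.14, and their muscle peaks had a -log10 p of 6.19, 4.35 and 2.48 in bat 1 and 2.40, 2.79 and 3.29 in bat 3. The muscle peak of the first of them in bat 1 was, at rank 45338, still among the 50000 strongest of its list.

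At the muscle end, NW_023416308.1:27539988-27540809 had 2.15- and 2.87-fold enrichment in testis of bats 1 and 3 and 8.34- and 13.6-fold in muscle, with no liver interval. NW_023416285.1:98119788-98120505 had 1.99- and 2.26-fold enrichment in testis, 5.87- and 12.2-fold in muscle and 2.19-fold in liver of bat 3. NW_023416285.1:39692392-39693438 had 2.22- and 4.12-fold enrichment in testis, 7.53- and 17.0-fold in muscle and 2.00-fold in liver of bat 1. Their testis minus muscle differences were -2.10, -1.99 and -1.90, and the folds of the testis libraries lay below those of the muscle libraries in all 3. The last of them was among the 50000 strongest testis intervals in bat 3, at rank 30051, and not in bat 1.

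The peaks of the 4 lists were less closely aligned here than in regions also present in brain. The testis and muscle regions were 213 to 2908 bases wide, with a median of 815, against a median of 1091 for regions in all 14 brain lists. A base covered by all 4 lists existed in 1236 of the 2107 (58.7%), against 95.9% of the regions in all 14 brain lists. The 2 testis lists shared a base in 92.9% of the testis and muscle regions and the 2 muscle lists in 81.4%. The median distance between the summits was 136 bases within testis, 156 within muscle and 176 to 177 between testis and muscle. In regions in all 14 brain lists the corresponding distances were 25, 25 and 31 to 37 bases. The regions in 1 to 13 brain lists lay nearer to the testis and muscle regions, with distances of 105.5, 103 and 139 to 148 bases. Their median width was 847 bases, and 73.0% of them had a base covered by all 4 lists. Each list had a single interval in 1350 (64.1%) of the testis and muscle regions. Of the 1236 with a common base, 35.8% had a peak in liver of bat 1 and 33.5% in liver of bat 3.

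Liver was not part of the choice, and 33.3% to 35.4% of the regions had a peak in each liver list. An interval was present at 745 regions (35.4%, 95% Wilson interval 33.3% to 37.4%) in liver of bat 1 and at 33.3% (31.3% to 35.4%) in liver of bat 3. Of all merged testis and muscle regions, 13.8% and 16.1% had one. Of all regions in the 4 lists, 45.0% had one in bat 1 and 71.1% in bat 3, and of those in all 14 brain lists, 49.4% and 84.4%. The shares of the testis and muscle regions lay above those of all merged regions and below those of regions in all 14 brain lists, with the wider gap in bat 3. Of the regions in 1 to 13 brain lists, 36.3% had a peak in liver of bat 1, a value inside the interval of the testis and muscle regions, and 47.2% in liver of bat 3. The intervals cover counting error alone, and the 2 libraries of a tissue give no test of the difference.

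Most regions with a liver peak had it in 1 of the livers. Both had a peak at 306 regions (14.5%, against 4.49% of all merged regions, 36.8% of all regions in the 4 lists and 45.5% of those in all 14 brain lists). Liver of bat 1 alone had one at 439, liver of bat 3 alone at 396, and neither at 966 (45.8%). At the peaks that were there, the median fold was 2.00 in bat 1 and 2.74 in bat 3. Across the 306 regions with both, Pearson r between the log2 folds was 0.12 and Spearman rho 0.096. Of the regions in 1 to 13 brain lists, 1744 had both, with an r of 0.63 and a rho of 0.26. For the 9734 with both in all 14 brain lists, r was 0.49 and rho 0.46.

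Wider regions had a liver peak in a larger share. In the narrowest of 4 width classes of about equal size, up to 606 bases, 23.3% of the testis and muscle regions had a peak in liver of bat 1 and 22.9% in liver of bat 3. In the widest, from 1108 bases, the shares were 52.6% and 45.9%. The median width was 1061.5 bases with both livers, 893 with bat 1 alone, 818.5 with bat 3 alone and 727 with neither. Within each width class, liver of bat 3 had fewer peaks in the testis and muscle regions than in regions in all 14 brain lists, with 45.9% against 93.5% in the widest class and 22.9% against 67.0% in the narrowest. In liver of bat 1 the difference was smaller, with 52.6% against 65.2% in the widest class and 23.3% against 25.3% in the narrowest. Against the regions in 1 to 13 brain lists, the testis and muscle regions had the higher share in liver of bat 1 in the 2 widest classes, 38.6% against 34.9% and 52.6% against 48.8%. In the 2 narrowest classes they had the lower share, 23.3% against 28.7% and 27.0% against 30.1%. In liver of bat 3 their share was lower in every class, with 45.9% against 58.5% in the widest and 22.9% against 40.1% in the narrowest.

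**Figure D4:**
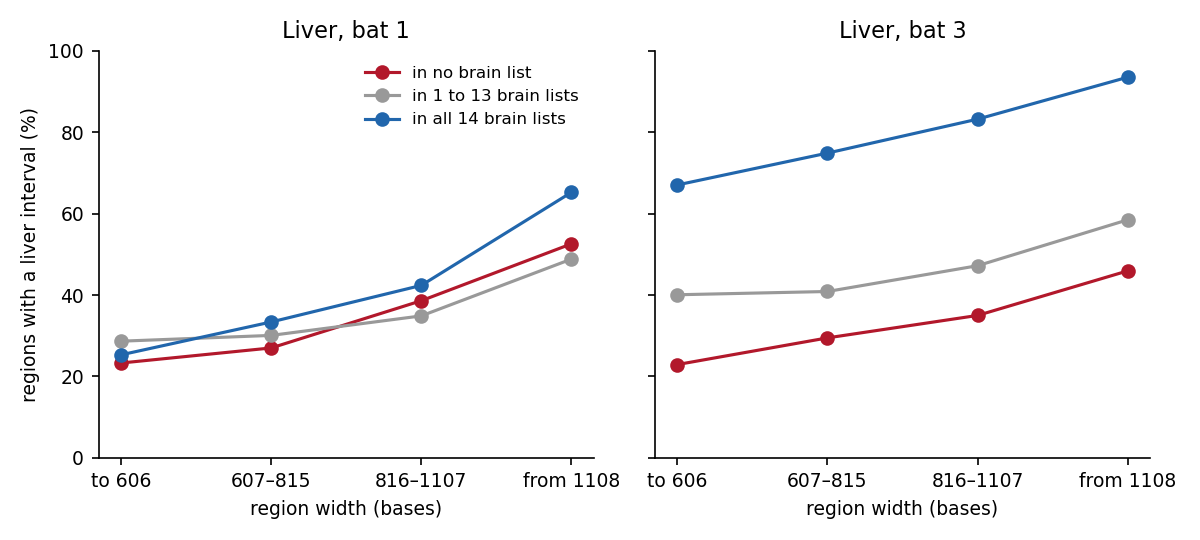
Share of regions with a liver interval (percent, vertical) by region width in bases (horizontal, 4 classes of about equal size for the regions in no brain list), for liver of bat 1 (left) and bat 3 (right). Red is the 2107 regions in no brain list, grey regions in 1 to 13 brain lists and blue regions in all 14; the red line reaches 52.6% in bat 1 and 45.9% in bat 3 at the widest class, and in bat 3 it lies below the blue line in every class.

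By strength class, the order of the liver shares was the following. Regions strong in both testis lists alone had a liver peak in 50.7% (bat 1) and 41.5% (bat 3), and those strong in both muscle lists alone in 22.01% and 31.1%. The regions strong in none of the 4 lists had 29.4% and 27.4%, and the 35 strong in all 4 had 37.1% and 57.1%. Over all regions in the 4 lists, the testis-strong had 50.2% in liver of bat 1, the muscle-strong 26.2% and those strong in none 29.9%. These were close to the shares above. In liver of bat 3 the same classes had 51.2%, 52.6% and 34.3%. The class strong in all 4 lists was not close, with 57.4% in bat 1 and 92.3% in bat 3 over all regions. The testis-strong testis and muscle regions were also wider than the muscle-strong ones, with median widths of 1160 and 917 bases. The part of width in this order was not tested.

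Set beside the other pairs of organs, testis and muscle lay between the others in the share of their common regions that was absent from brain. Merging testis with liver gave 15926 regions in all 4 lists, of which 2069 (12.99%) were in no brain list, and merging muscle with liver gave 13151, of which 463 (3.52%) were. The testis and muscle share was 6.57%. The 3 pairs share libraries and are given side by side with no test. Among merged regions in no brain list, testis of bat 1 shared 12739 with muscle of the same animal and 10950 with muscle of bat 3. Testis of bat 3 shared 11039 with muscle of its own animal and 12447 with muscle of bat 1. Muscle of bat 1 had more such regions in all, 70399 against 62651 in bat 3. As shares of the muscle list, the 4 pairs were nearly level, at 17.5% to 18.1%. The 2 muscle lists shared fewer with each other, 10535, or 15.0% of the regions of bat 1 and 16.8% of those of bat 3. The 2 testis lists shared 37528, or 34.5% and 32.3%. Sharing between testis and muscle was thus no lower than sharing between the 2 muscle lists.

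Around the limits of the choice, 1067 regions were in all 4 testis and muscle lists and in exactly 1 brain list. Cerebellum supplied 618 of these brain lists, 369 in bat 3 and 249 in bat 1, followed by ofM1 with 169, PreM with 127, putamen with 55, 2A with 35, caudate with 35 and wM1 with 28. Of the ofM1 regions, 162 were from bat 1, the brain list with the lowest floor. The cerebellum lists ended at a -log10 p of 3.53 in bat 3 and 5.28 in bat 1. PreM of bat 1, with 90 of these regions, ended at 4.78. The lists of 2A and caudate of bat 3, with 13 and 15, ended at 4.45 and 4.65. The part of the floors in this order was not tested. Without the cerebellum lists 3516 regions would have been chosen. The single brain peak had a median -log10 p of 5.97 and a median fold of 2.48. On the other side, 11019 regions were in 3 of the 4 lists and no brain list, of which 1223 were missing from testis of bat 1 and 1222 from testis of bat 3, against 3919 from muscle of bat 1 and 4655 from muscle of bat 3.

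A region on each side of the limit shows how close it runs. Just inside, NW_023416288.1:43224373-43225273 lay 1 base from a brain interval, with 2.07- and 2.59-fold enrichment in testis of bats 1 and 3, 2.02- and 2.19-fold in muscle and 1.93-fold in liver of bat 1. Just outside, NW_023416284.1:178800030-178801259 had 2.75- and 2.98-fold enrichment in testis, 3.55- and 11.1-fold in muscle and 2.23-fold in liver of bat 1, and a single brain peak in ofM1 of bat 1 of 2.05-fold, at that list's floor of 3.30 in -log10 p. The region outside had the stronger peaks in testis and muscle of both animals. Over the whole set, the nearest brain interval was at a median distance of 1404 bases (1 to 52484), within 500 bases for 457 regions (21.7%) and beyond 10 kb for 65 (3.08%). To the nearest of the 50000 strongest intervals of any brain list, the median distance was 5456 bases, and 637 regions (30.2%) lay beyond 10 kb.

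The regions were spread over the genome with an exception. On 17 of the 18 scaffolds longer than 20 Mb, 30 to 234 testis and muscle regions were found per scaffold, at 0.873 to 1.497 per Mb, and they made up 4.37% to 8.63% of the regions in the 4 lists. A further 5 lay on smaller scaffolds. NW_023416312.1, with intervals over 106 Mb, had none among its 465 regions in the 4 lists, which allows a share of up to 0.645%, and 437 of the 465 were in all 14 brain lists. This scaffold held few peaks outside brain, with 11.1 to 12.1 intervals per Mb in testis, 12.4 to 18.5 in muscle and 2.21 to 12.2 in liver, against 32.6 to 48.7 in the brain lists. The other 17 had 119 to 153 in testis, 76.2 to 121 in muscle, 54.1 to 127 in liver and 38.4 to 140 in brain. It did hold peaks absent from brain, with 23 regions in 3 of the 4 lists, 168 in 2 and 1012 in 1.

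**Figure D5:**
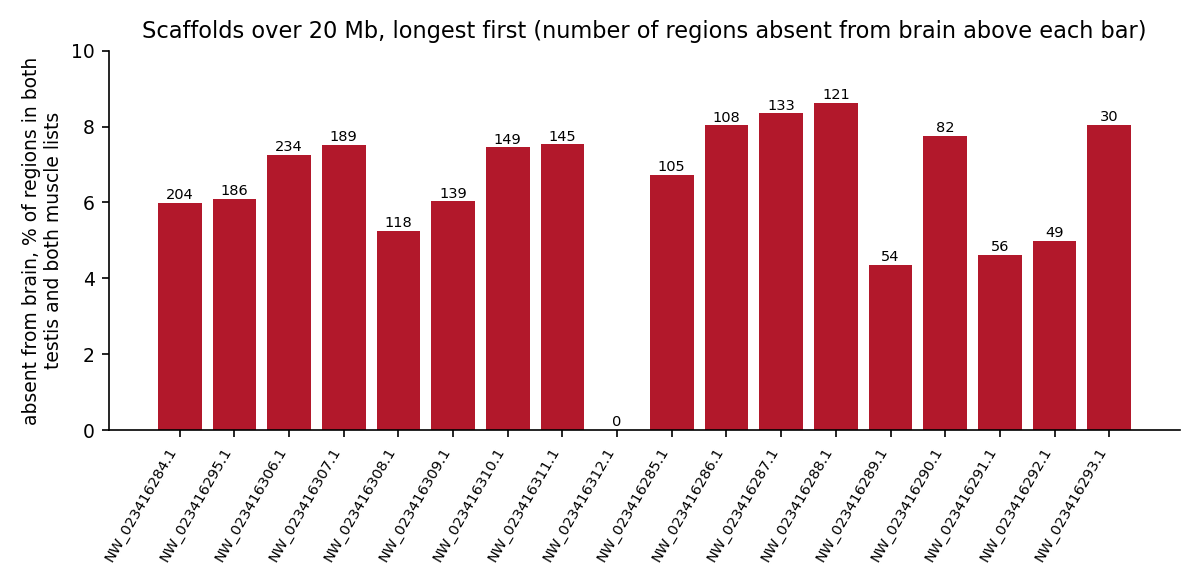
Share of the regions in both testis and both muscle lists that were in no brain list (percent), on the scaffolds longer than 20 Mb in order of length, with the number of such regions above each bar. The share is 4.37% to 8.63% on 17 scaffolds and 0 of 465 on NW_023416312.1.

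Most testis and muscle regions had no other of the set within 25 kb. Their density was low, at 0.873 to 1.497 per Mb on 17 of the scaffolds longer than 20 Mb. Runs were not counted for other sets of regions, so the counts describe spacing alone. With neighbours joined over gaps of up to 25 kb, 1921 had no neighbour, 78 runs held 2, 6 held 3 and 3 held 4. The densest run, NW_023416309.1:14075276-14107812, held 4 regions over 32537 bases, with median folds of 2.89 and 3.80 in testis of bats 1 and 3 and 2.60 and 2.49 in muscle. NW_023416285.1:75648008-75682944 held 4 regions with medians of 3.22 and 3.09 in testis and 2.87 and 3.67 in muscle, of which 3 had a liver peak. NW_023416309.1:95929421-95985048 held 4 regions with medians of 2.31 and 2.85 in testis and 2.35 and 2.77 in muscle, of which 1 had a liver peak. In the second run single regions reached 4.65- and 5.95-fold in testis and 4.80- and 8.85-fold in muscle. In all 3 runs the weakest -log10 p of a region was 4.80 or less.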

How the data were processed

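ATAC-seq was done on bulk tissue, with nuclei released from cryopreserved tissue, per the labels' protocols. Per the submitters' processing notes, Bowtie2 and MACS2 were used, with no version or role named. The authors deposited 1 peak list per library, so animals were not pooled. Each deposited row gives a fold (the ratio of signal to the peak caller's background), a -log10 p and a -log10 q, and the summit offset, per the files' narrowPeak layout. Rows of the same interval were collapsed, with the one of highest -log10 p kept. Testis and muscle intervals were merged where they overlapped or touched, and overlap was at least 1 base. A region's fold in a library is the highest of its intervals there. Sets were compared in Python 3.11.15 (numpy 2.4.6, pandas 2.3.3, scipy 1.17.1) and checked against bedtools 2.31.1, which gave the same 517779 merged and 2107 chosen regions, and the search was tested on simulated lists. Testis and muscle were compared by an exact permutation of the 4 libraries. The libraries pair by animal, since testis and muscle of a number come from 1 bat. Intervals for shares are Wilson, at 95%, and cover counting error only.

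The choice of regions and the lists of alternatives were made with earlier results of these data known. Regions named are the 10 with the highest weakest -log10 p, the 3 with the largest and the 3 with the smallest testis minus muscle log2 fold of the same sign in both animals, the 3 densest runs, and a region on each side of the limit. The 12 RNA libraries, from brain tissues alone, were not used. The gene table at hand (36769 genes) gives none of them a scaffold, and no genome sequence was used, so genes, motifs and base composition were not analysed here. Alternatives covered peak thresholds, overlap, distance to brain intervals, each library left out and the pairing.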

Additional observations from a re-analysis of the deposited data

How the results depend on the processing

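The number of regions depended on each peak threshold tried. Against 2107, it was 1117 with a -log10 p of at least 3 in each of the 4 lists, 4 at the highest brain floor, 35 among the 50000 strongest intervals of each list, and 115 where each list's intervals covered at least 50% of the region. It was 7663 with absence asked of the 50000 strongest brain intervals alone. It changed less, to 1652, with no brain interval allowed within 500 bases, and was 2106 when only intervals sharing a base were merged. Alternatives chosen after seeing the data gave 1168 (q of at most 0.05 in each list), 1236 (a base common to the 4 lists) and 3516 (no cerebellum lists). Leaving out a testis or muscle library gave 3176 to 6688, since fewer lists were then required: 3176 without testis of bat 1, 3255 without testis of bat 3, 6002 without muscle of bat 1 and 6688 without muscle of bat 3. Leaving out each brain library gave 2114 to 2476.

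The liver share, 35.4% in bat 1 and 33.3% in bat 3, was 50% and 100% of the 4 regions at the highest brain floor, 37.1% and 57.1% of the 35, 37.8% and 42.9% of the 7663, 37.4% and 29.6% of the 115, 39.5% and 36.0% without cerebellum, and 26.4% and 25.7% with liver peaks of -log10 p of at least 3. Leaving out a testis or muscle library gave 26.8% to 29.1% and 25.6% to 28.4%, and a brain library 35.0% to 36.7% and 33.2% to 34.7%. Other settings changed the liver share little. It was 36.1% and 34.1% with a -log10 p of at least 3 in each of the 4 lists. With a q-value of at most 0.05 in each it was 35.6% and 33.7%, and with no brain interval within 500 bases 35.2% and 34.1%.

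The testis minus muscle difference of 0.18 was -0.54 over the 4 regions and -0.42 over the 35. It was -0.059 to 0.24 with a testis or muscle library left out and 0.18 to 0.22 with a brain library left out, and it kept its sign in the other 10 alternatives. With the animal as a replicate block it was 0.18 again (0.062 in bat 1 and 0.30 in bat 3; exact sign-flip p = 0.5, the smallest that 2 animals allow). The causes of these shifts were not tested. The comparisons at gene starts and of base composition were not run, as they need genes or sequence on these scaffolds. Depth is unknown, and the floors of the lists limit what absence from brain can show.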
